A study of Mus musculus with 4 samples.

Results

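Mouse embryonic fibroblasts labelled STAT3KO were compared with WT fibroblasts in the absence of interferon alpha (IFNa), on 1 Illumina bead array each. A bead array measures the amount of each RNA as the brightness of a probe. The comparison took every probe with a detection score above 0.99, the scanner software's confidence that a probe exceeds background, on at least 1 of the 2 arrays. This selected 18845 of 46632 probes, of which 14229 carried 1 gene symbol and stood for 10214 of the 17708 genes named on the array. The remaining 4616 probes were unnamed.

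The series holds 4 arrays, which are STAT3KO untreated, WT untreated, STAT3KO IFNa and WT IFNa. All RNA came from fibroblasts of the C57BL/6 strain that the labels describe as a MEF cell line, and the IFNa arrays are of cells given 1000 U per ml for 2 h. The labels do not say how many lines or clones stand for a genotype, how the cells were immortalised, or which part of Stat3 was removed. With 1 array in a group a difference has no replicate check, so no p-value is given for any of them. The pair of IFNa arrays gave a second set of STAT3KO and WT RNA, and its difference is set beside the main one as a description.

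STAT3 is a latent transcription factor of the cytoplasm. Cytokines of the interleukin-6 family bind receptors that share the gp130 chain, JAK kinases phosphorylate STAT3, and its dimers enter the nucleus and bind a palindromic DNA element near genes of the acute phase response, survival and feedback inhibition. In fibroblasts it also acts downstream of growth factor receptors, and type I interferons also activate it.

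All values below are normalized log2 intensities of a probe, so a step of 1 is a 2-fold change in brightness, and levels of different genes are not compared. A fold given as "at least" is a bound for the processing used here, and other processing gave smaller differences for many of these genes. Detected probes numbered 17524 in STAT3KO untreated and 16076 in WT untreated. The deposited intensities of WT untreated had already been normalized by the authors, while those of STAT3KO untreated had not, so genotype and this step cannot be told apart for small differences. Probes just inside the detection rule, with a highest score of 0.995 or less, numbered 311 and had a median difference of -0.37, and 1.93% of them were past 2-fold. Just outside it, 377 probes with a highest score above 0.985 had a median difference of -0.03, and 0% were past 2-fold.

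STAT3KO fibroblasts were at least 2-fold higher than WT for 1255 of the 10214 genes, or 12.3%, and at least 2-fold lower for 990, or 9.69%. The median difference over all genes was 0.03, and the middle of the distribution, from the 25th to the 75th percentile, ran from -0.51 to 0.56. The far ends leaned to the low side. Differences of at least 8-fold were found for 130 genes higher in STAT3KO and 181 lower, and differences of at least 64-fold for 9 higher and 24 lower. On the threshold itself, 104 of the higher genes had a difference under 1.05, and 106 genes just missed it with 0.95 to 1. Both arrays detected 8468 of the genes, of which 826 (9.75%) were past 2-fold higher and 704 (8.31%) past 2-fold lower. A further 1065 were detected in STAT3KO alone and 681 in WT alone. Detected probes were more numerous in STAT3KO without IFNa but in WT with it. Whether the brightness of single arrays set these counts was not tested. The cells are mixed in the extract, so fewer cells of a type and less RNA per cell cannot be told apart.

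The genotype difference came back in the pair given IFNa. Of the 1255 higher genes 831 were also past 2-fold higher there, 66.2% of the list and 81.8% of the 1016 genes (10.1%) higher in that pair. Of the 990 lower genes 773 were past 2-fold lower with IFNa, 78.1% of the list and 73.0% of the 1059 genes (10.6%) lower there. Over the 8129 genes detected on all 4 arrays the 2 differences correlated at r = 0.882. The points of this correlation are genes measured on the same arrays, and they do not replicate the lines. For comparison, IFNa against no treatment moved 2.03% of genes past 2-fold within STAT3KO and 1.25% within WT, against 22% for the genotype difference without IFNa. The plot of STAT3KO against WT intensity shows these genes as a wide cloud on both sides of the line of equal signal.

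**Figure D1:**
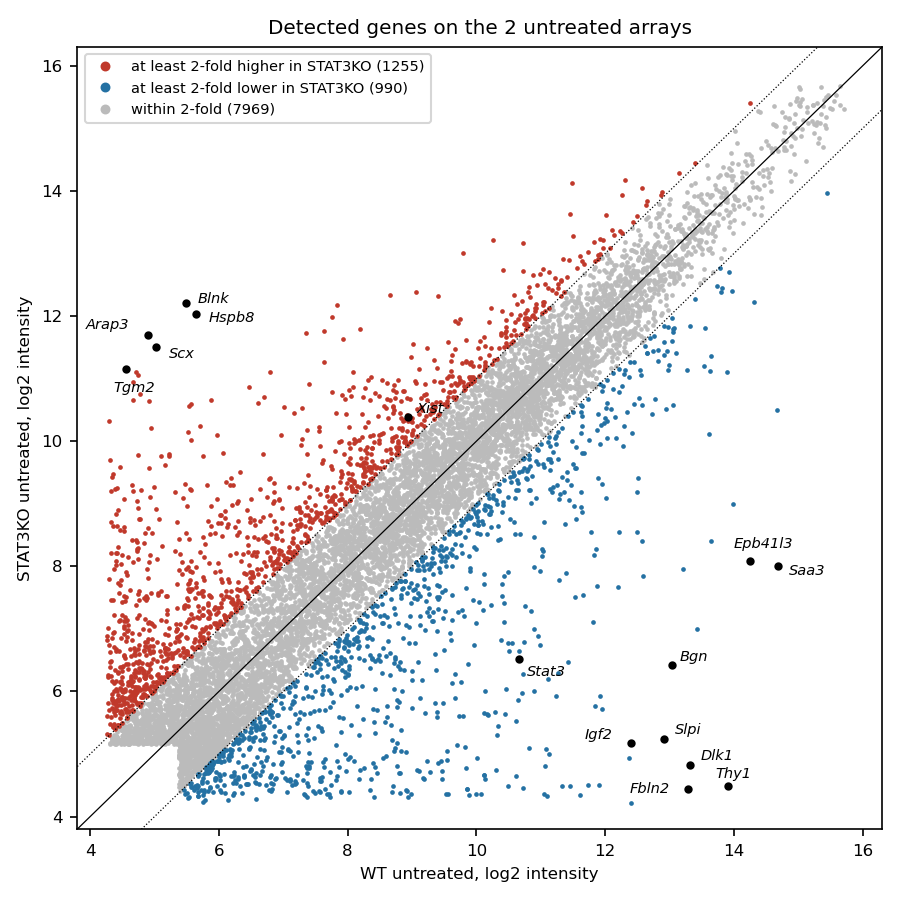
Normalized log2 intensity in STAT3KO untreated (vertical axis) against WT untreated (horizontal axis) for the 10214 genes, 1 array each. Coloured points are the 1255 genes at least 2-fold higher and the 990 at least 2-fold lower in STAT3KO, and Stat3 lies below the line at 6.51 in STAT3KO and 10.66 in WT.

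Stat3 itself stood at 6.51 in STAT3KO untreated and 10.66 in WT untreated, 17.7-fold lower. With IFNa it stood at 6.12 in STAT3KO and 10.92 in WT. A second detected probe was lower by a like amount, with a difference of -4.0. Stat3 was still above background in STAT3KO, and since the deleted part is not given, it is not known whether the probes lie inside it. Its neighbours on chromosome 11 differed far less. Cavin1, which builds caveolae, differed by -0.62, Atp6v0a1, a proton pump subunit, by 0.29, and Naglu, a lysosomal enzyme, was 2.03-fold higher. Rab5c, Ghdc and Mlx lay within 0.30 of zero, and the adjoining Stat5a and Stat5b were detected on neither untreated array.

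Genes described as STAT3 targets leaned to the low side. Of 36 on the array 30 were detected, 12 of them past 2-fold lower and 4 higher in STAT3KO, or 40% and 13.3% against 9.69% and 12.3% of all genes, with a median difference of -0.61. Acute phase genes differed among themselves. Saa3, an acute phase apolipoprotein, was at 8.0 in STAT3KO and 14.69 in WT, 103-fold lower. Hp, which encodes haptoglobin, was not detected in STAT3KO and stood at 12.37 in WT, at least 148-fold lower, although a second probe differed by only -2.67. Serpina3n, a protease inhibitor, was at least 4.63-fold lower. All 3 were lower in STAT3KO with IFNa too.

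Among the receptors and cytokines upstream, the differences were uneven. Osmr, the oncostatin M receptor chain, was not detected in STAT3KO and stood at 10.62 in WT, at least 44.0-fold lower. Il6st, which encodes the shared gp130 chain, had 8.46 in STAT3KO and 8.52 in WT. Il6, the ligand, was undetected in STAT3KO and at 8.26 in WT, at least 8.58-fold lower. Lif, a further ligand of gp130, was at 7.55 in STAT3KO and 9.61 in WT. Jak1, a kinase of these receptors, had 8.92 in STAT3KO and 8.75 in WT. Ifnar2, a chain of the IFNa receptor, was at 6.63 in STAT3KO and 7.44 in WT, inside 2-fold. Over the list of receptors, JAKs and STATs 2 of 14 detected genes were past 2-fold higher, 1 lower and 11 within it. The shares, 14.3% higher and 7.1% lower, were near the 12.3% and 9.69% of all genes. The 2 higher genes were Stat2 and Irf9, transcription factors of the type I interferon response, and 1 of these was past 2-fold higher with IFNa too. Stat2 had 6.26 in STAT3KO and was not detected in WT, and Irf9 had 7.42 in STAT3KO and 6.34 in WT.

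Feedback and immediate targets were lower by smaller steps. Socs3, the feedback inhibitor of gp130 signalling, had 9.18 in STAT3KO and 11.18 in WT, 3.98-fold lower. Cebpb, a transcription factor of the acute phase, had 10.57 in STAT3KO and 12.58 in WT, 4.02-fold lower. Vegfa, an angiogenic growth factor, had 10.52 in STAT3KO and 12.95 in WT. Gadd45g, Fos, Timp1 and Junb were between 3.81-fold and 2.03-fold lower. For Gadd45g and Junb the difference with IFNa was inside 2-fold, at -0.27 and -0.23. Several often cited targets hardly differed: Myc was at 5.94 in STAT3KO and 5.97 in WT, Bcl3 was at 6.63 in STAT3KO and 6.74 in WT, and Lcn2, an acute phase lipocalin, had a log2 difference of -0.13. Mcl1, a survival gene, was at 12.83 in STAT3KO and 12.27 in WT. Higher in STAT3KO were Lbp, Icam1, Mmp9 and Jak3, none of them detected in WT. Of these 4 genes 2 were past 2-fold higher with IFNa too. Lbp, an acute phase protein that binds bacterial lipopolysaccharide, was at least 4.26-fold higher. For Jak3 the bound was 1.37-fold.

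Of 15 detected genes that restrain JAK-STAT signalling 2 were past 2-fold higher and 2 lower, 13.3% each way, near the 12.3% and 9.69% of all genes. Ptpn6, the phosphatase SHP-1, was at 9.76 in STAT3KO and not detected in WT, at least 20.9-fold higher. Pias3, named for its inhibition of STAT3, was at 10.23 in STAT3KO and 8.26 in WT, but its 3 detected probes ranged from -0.47 to 2.04. Socs5 was at 10.46 in STAT3KO and 12.33 in WT, and Cish at 6.83 in STAT3KO and 7.87 in WT. Socs1 was nearly equal, at 8.10 in STAT3KO and 8.06 in WT. Ptpn6 marks blood cells in other settings. The blood and macrophage list had 4 of its 16 genes detected in STAT3KO and 4 in WT, with median log2 levels of 4.63 in STAT3KO and 4.59 in WT.

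The DNA element to which STAT dimers bind, written TTCNNNGAA and read the same on both strands, was searched in RefSeq promoters of build GRCm38.p6, from 250 bases before to 50 after the start. It occurred in 8.3% of the 32851 promoters in the table. Among genes with a promoter there, it occurred in 83 of 1006 higher genes, or 8.3%, in 66 of 734 lower genes, or 9.0%, and in 8.4% of 6575 genes within 2-fold. Among the STAT3 target genes 3 of 23 held it, which were Socs3, Icam1 and Tnfrsf1a. A match is a description of the letters in this window and no evidence of binding. Of the 70 genes named below for the size of their difference 50 had a promoter in the table and 2 held the element, Aldoc, higher in STAT3KO, and Sphk1, lower in STAT3KO. The promoters of these 2 genes and of Socs3 are shown because they place the element beside a gene of each kind, with the element in capitals. Socs3 lies at chr11:117969317-117969616 on the minus strand, with the element starting 154 bases before the gene's start. Aldoc lies at chr11:78323948-78324247 on the plus strand, with elements starting 124 and 83 bases before. Sphk1 lies at chr11:116531587-116531886 on the plus strand, with the element starting 41 bases before.
Socs3: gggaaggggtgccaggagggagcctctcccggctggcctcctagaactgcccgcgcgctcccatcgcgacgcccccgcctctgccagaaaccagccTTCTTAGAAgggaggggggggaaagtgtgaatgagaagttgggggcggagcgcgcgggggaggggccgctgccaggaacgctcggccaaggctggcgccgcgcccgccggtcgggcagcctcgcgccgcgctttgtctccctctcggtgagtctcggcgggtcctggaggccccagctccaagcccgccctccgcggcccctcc
Aldoc: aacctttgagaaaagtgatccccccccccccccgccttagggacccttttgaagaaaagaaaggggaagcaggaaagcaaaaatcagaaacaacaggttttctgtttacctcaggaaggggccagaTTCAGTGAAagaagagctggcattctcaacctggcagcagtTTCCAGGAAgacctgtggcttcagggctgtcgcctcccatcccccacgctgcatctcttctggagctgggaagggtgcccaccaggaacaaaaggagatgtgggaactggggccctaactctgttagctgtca
Sphk1: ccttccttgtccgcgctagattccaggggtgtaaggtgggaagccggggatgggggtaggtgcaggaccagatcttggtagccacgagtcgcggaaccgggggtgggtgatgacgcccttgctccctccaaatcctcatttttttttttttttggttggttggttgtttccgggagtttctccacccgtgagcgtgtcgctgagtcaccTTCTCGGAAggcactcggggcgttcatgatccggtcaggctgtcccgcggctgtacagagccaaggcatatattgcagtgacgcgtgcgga

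Aldoc, the brain form of the glycolytic enzyme aldolase, was at 10.25 in STAT3KO and 5.71 in WT, 23.2-fold higher. Sphk1, which makes the lipid signal sphingosine 1-phosphate, was at 5.31 in STAT3KO and 10.32 in WT, 32.2-fold lower. The same letters thus stood in a promoter of a gene on each side.

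The genes with the largest differences were taken by size among those past 2-fold the same way with IFNa and in the authors' normalized values. In STAT3KO the highest among genes detected on both arrays was Blnk, an adaptor protein best known from B cells, with 12.21 in STAT3KO and 5.48 in WT, 106-fold higher. A second probe of Blnk differed by 3.15. Hspb8, a small heat shock protein that works with Bag3, had 12.03 in STAT3KO and 5.65 in WT, 83.5-fold higher. Angpt2, a ligand of the endothelial receptor Tie2, was at 12.17 in STAT3KO and 7.83 in WT. Dysf, a membrane repair protein of muscle, was at 10.66 in STAT3KO and 5.87 in WT. Rgs17, a brake on G protein signalling, was at 11.11 in STAT3KO and 6.79 in WT. Cpm, a carboxypeptidase of the cell surface, was at 10.71 in STAT3KO and 6.70 in WT. Hoxa7, Etl4, Acap1, C330018D20Rik, Nipsnap1, Ctnnal1, Lrba, Fxyd5, Cyb561, Klrg2, Lat2, Sag and Gcnt1 made up the rest of the 20 with Aldoc. Of these, a second probe was within 2-fold for Gcnt1 alone, at 0.56.

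Other genes were detected in STAT3KO untreated and on neither WT array, and the 15 with the largest bounds were taken. Arap3, which regulates the small GTPases Arf6 and RhoA, was at 11.70 in STAT3KO and at least 80.2-fold higher, with a second probe at 0.97. Tgm2, tissue transglutaminase, was at 11.15 in STAT3KO and at least 54.9-fold higher. Mgmt, the enzyme that removes alkyl groups from guanine in DNA, was at 10.95 in STAT3KO and at least 47.6-fold higher, and undetected on both WT arrays. Tusc1, Csn3, a milk casein, and Raet1d, a ligand of the killer cell receptor NKG2D, were at least 53.3-fold, 51.2-fold and 39.0-fold higher. Cyth4, 2610318N02Rik, Trim54, Csta2, Cyria, Ptpn6, Hoxa11, Card10 and Mab21l2 completed the 15. The lowest difference among the detected probes was 0.23 for Cyth4, -0.49 for 2610318N02Rik and 0.72 for Cyria.

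On the low side the largest measured difference was that of Slpi, a secreted inhibitor of leukocyte elastase, at 5.25 in STAT3KO and 12.92 in WT, 204-fold lower. The level in STAT3KO lay close to the lowest detected one, and the log2 difference of -7.67 came to -6.29 with no background correction. Igf2, the imprinted fetal growth factor, was at 5.18 in STAT3KO and 12.39 in WT, 148-fold lower. Bgn, the matrix proteoglycan biglycan, was at 6.42 in STAT3KO and 13.03 in WT, 98.0-fold lower. Timp3, an inhibitor of metalloproteinases bound to the matrix, was at 7.0 in STAT3KO and 13.42 in WT. Epb41l3, which links membrane proteins to the cytoskeleton, was at 8.09 in STAT3KO and 14.25 in WT. Ankrd1, a nuclear protein induced by stretch and by YAP, was at 5.93 in STAT3KO and 11.92 in WT. The list went on with Saa3, Igfbp5, Col1a2, Clmp, Cdc42ep3, Fhl1, Tagln, Sphk1, Lox, Rgs16, Foxc2, Dcn, Sfrp1 and Lpar1.

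Among genes detected in WT untreated and on neither STAT3KO array, Thy1, a surface glycoprotein of fibroblasts, had the largest bound, with 13.90 in WT untreated and 14.15 in WT IFNa, at least 429-fold lower at the offset used. The log2 difference taken from its undetected level in STAT3KO was -9.42, and -7.66 with no background correction. Dlk1, an imprinted inhibitor of fat cell formation, was at 13.32 in WT and at least 285-fold lower. Fbln2, a matrix glycoprotein of elastic fibres, was at 13.28 in WT and at least 278-fold lower. Crabp1, a retinoic acid binding protein, was at 11.73 in WT and at least 94.9-fold lower. Cgas, the sensor of cytosolic DNA, was at 10.73 in WT untreated, 11.38 in WT IFNa and undetected on both STAT3KO arrays, at least 47.5-fold lower, while its second probe differed by -1.07. Grem1, En1, Igfbp3, Hp, Thbs2, Hoxc6, Hoxc8, Hoxc9, Gpr149 and Tmem45a completed the 15. The plot of the largest of these genes gives their levels on all 4 arrays, where the side taken with IFNa was fixed in part by the choice of genes.

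**Figure D2:**
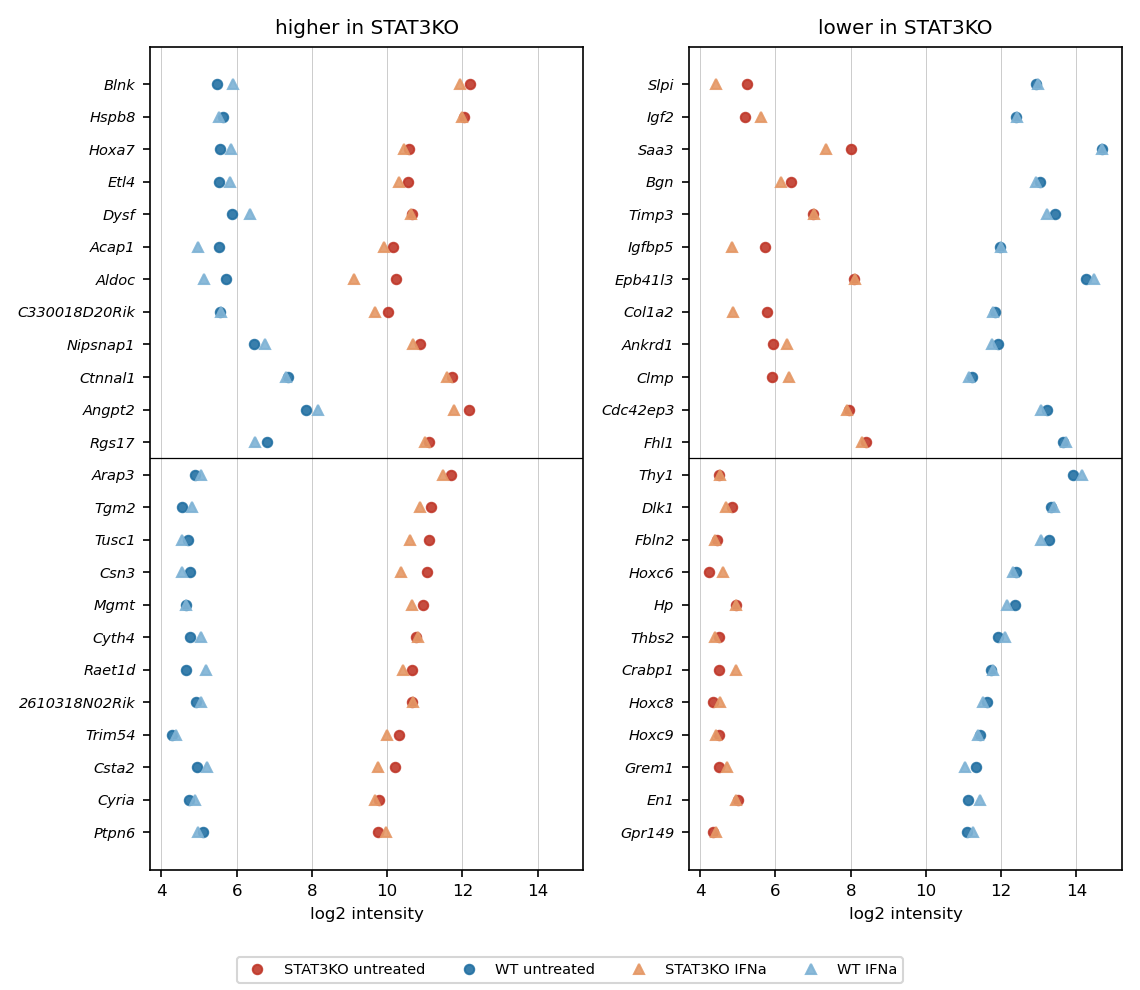
Normalized log2 intensity (horizontal axis) of the genes with the largest differences in each direction, in STAT3KO untreated, WT untreated, STAT3KO IFNa and WT IFNa, 1 array each and no error. Genes above the line in each panel were detected on both untreated arrays and those below it on 1. Blnk heads the higher genes at 12.21 in STAT3KO and 5.48 in WT, and Slpi the lower ones at 5.25 in STAT3KO and 12.92 in WT.

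Several classes of extracellular matrix genes held more lower than higher genes in STAT3KO, where all genes gave 9.69% lower and 12.3% higher. The elastic fibre and matricellular list had 15 of 20 detected genes (75%) past 2-fold lower and 1 higher, with a median difference of -1.92. Thbs2, an antiangiogenic thrombospondin, was undetected in STAT3KO and at 11.90 in WT, at least 107-fold lower. Ltbp2, a binding protein of latent TGF-beta, was at 7.10 in STAT3KO and 11.80 in WT, with a second probe at -1.18. Ccn2 and Ccn1, matricellular proteins also known as CTGF and CYR61, were at 10.49 and 6.65 in STAT3KO against 14.67 and 10.66 in WT. Postn, periostin, was undetected in STAT3KO and at 8.10 in WT, at least 7.66-fold lower, and Fn1, fibronectin, was at 7.88 in STAT3KO and 9.33 in WT. The exception was Ltbp3, at 12.70 in STAT3KO and 11.13 in WT.

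Collagens differed among themselves. Of 20 detected collagens 9 (45%) were past 2-fold lower and 3 (15%) higher. Col1a2 and Col1a1, the chains of type I collagen, were at 5.78 and 8.55 in STAT3KO against 11.84 and 12.21 in WT, or 67.1-fold and 12.7-fold lower. Col3a1, the type III chain that accompanies it in fibroblasts, was at 10.55 in STAT3KO and 10.90 in WT. Col4a6, a basement membrane chain, was undetected in STAT3KO and at 9.86 in WT. Col8a1 was at 7.90 in STAT3KO and 11.40 in WT. Higher in STAT3KO were Col18a1, the source of endostatin, at 12.34 in STAT3KO and 8.65 in WT, and Col7a1, the anchoring fibril collagen of skin, at 11.55 in STAT3KO and 9.01 in WT.

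Genes that process collagen had 8 of 20 (40%) lower and 1 higher. Lox, which cross-links collagen and elastin, was at 9.0 in STAT3KO and 13.99 in WT, 31.8-fold lower, and its relative Loxl1 was at 10.12 in STAT3KO and 13.62 in WT. Sparc, a collagen chaperone outside the cell, was at 7.67 in STAT3KO and 12.20 in WT. P4ha3, a prolyl hydroxylase subunit, went the other way, at 7.82 in STAT3KO and 5.76 in WT. Among proteoglycans and hyaluronan genes 9 of 19 (47.4%) were lower and 0 higher. Dcn, decorin, was at 6.20 in STAT3KO and 11.11 in WT, and Has2, a hyaluronan synthase, at 5.81 in STAT3KO and 9.47 in WT.

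Proteases and their inhibitors had 12 of 26 (46.2%) lower and 2 higher. Ctsk, a collagen-degrading cathepsin, was undetected in STAT3KO and at 9.44 in WT, at least 19.5-fold lower. Mmp3, stromelysin, was at 8.55 in STAT3KO and 12.50 in WT. Adamts4, an aggrecanase, was higher, at 10.37 in STAT3KO and 8.62 in WT. Of 10 basement membrane genes 3 (30%) were higher and 2 (20%) lower, against 12.3% and 9.69% of all genes. Lama5, a laminin chain typical of epithelia, was at 9.21 in STAT3KO and undetected in WT, at least 14.3-fold higher. Lamb3, a laminin chain of epithelial basement membranes, was at 8.07 in STAT3KO and 5.42 in WT, and Lamb1 was lower, at 8.92 in STAT3KO and 10.12 in WT.

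Of 12 integrin genes 2 were higher and 2 lower, 16.7% each way and near the shares of all genes. Itga3, which pairs with beta 1 as a laminin receptor, was at 11.34 in STAT3KO and 8.98 in WT. Itga11, a collagen receptor of fibroblasts, was at 5.67 in STAT3KO and 10.28 in WT, 24.5-fold lower, and the fibronectin receptor chain Itga5 was at 7.34 in STAT3KO and 9.26 in WT. Cadherin and junction genes had 7 of 22 (31.8%) higher and 6 (27.3%) lower, against 12.3% and 9.69% of all genes. Cdh13, a cadherin without a transmembrane part, was undetected in STAT3KO and at 10.49 in WT. Pcdh7, a protocadherin, was at 8.64 in STAT3KO and undetected in WT, at least 9.65-fold higher, with another probe at 0.43. F11r, a tight junction adhesion molecule, was at 7.96 in STAT3KO and 5.50 in WT.

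Contractile and actin-binding genes were lower for 9 of 29 (31.0%) and higher for 1 (3.4%), against 9.69% and 12.3% of all genes. Their median difference was -0.61. Tagln, a smooth muscle actin-binding protein, was at 5.53 in STAT3KO and 10.62 in WT, 34.2-fold lower. Fhl1, a LIM domain protein, was at 8.41 in STAT3KO and 13.65 in WT. Cav1, the caveolar coat protein, was at 11.10 in STAT3KO and 13.90 in WT. Acta2, the actin of myofibroblasts, was bright on both arrays at 13.97 in STAT3KO and 15.45 in WT, and its 4 detected probes ranged from -3.72 to -1.06. Mylk, myosin light chain kinase, was higher, at 9.60 in STAT3KO and 7.74 in WT.

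**Figure D3:**
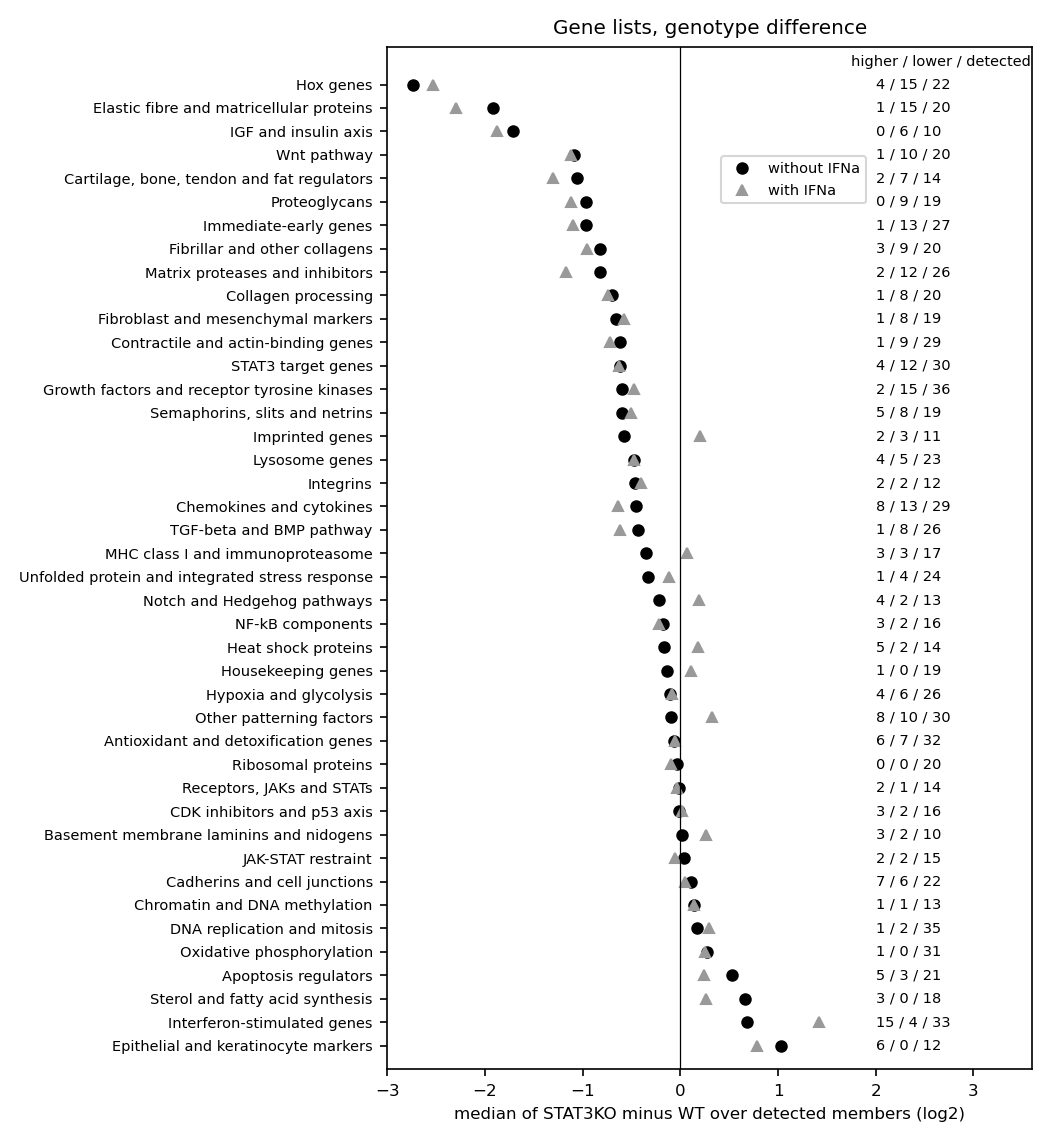
Median log2 difference, STAT3KO minus WT (horizontal axis), of the detected members of each gene list with at least 10 of them, as circles without IFNa and triangles with IFNa. The numbers at the right count members past 2-fold higher, past 2-fold lower and detected without IFNa. Hox genes at -2.74 and elastic fibre and matricellular genes at -1.92 lie at the low end, while ribosomal proteins lie at -0.03.

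The labelled cell type was set against its markers. Of 23 fibroblast and mesenchymal markers on the array 17 were detected in STAT3KO and 19 in WT, with median log2 levels of 6.93 in STAT3KO and 9.58 in WT. Among the 19 detected on either array 8 (42.1%) were past 2-fold lower and 1 (5.3%) higher, against 9.69% and 12.3% of all genes. Vim, which encodes the filament protein vimentin, was at 15.10 in STAT3KO and 15.28 in WT, and Twist1 at 10.01 in STAT3KO and 10.19 in WT. Twist2, its relative, was at 8.40 in STAT3KO and 12.57 in WT, and Snai2 at 6.93 in STAT3KO and 9.59 in WT. Zeb2 was at 6.75 in STAT3KO and 9.97 in WT, while its relative Zeb1 was at 9.82 in STAT3KO and 8.68 in WT. The receptor Pdgfrb was at 6.15 in STAT3KO and 9.77 in WT. A second probe of Pdgfra was at 0.04, against -3.91 on the brighter one. Both samples thus held mesenchymal transcripts, while the fibroblast marker Thy1 was not detected in STAT3KO.

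Markers of other cell types were mostly at background. Of 23 epithelial and keratinocyte markers 11 were detected in STAT3KO and 6 in WT, with median log2 levels of 4.96 in STAT3KO and 4.80 in WT. Of the 12 detected on either array 6 (50%) were past 2-fold higher in STAT3KO and 0 lower, against 12.3% and 9.69% of all genes. With IFNa 3 of these 6 were past 2-fold higher. Krt15, a basal keratin, was at 7.47 in STAT3KO, Lgals7, a galectin of stratified epithelia, at 7.57, and neither was detected in WT. Spint1, an epithelial protease inhibitor, was at 8.20 in STAT3KO and 6.38 in WT. The simple keratins were divided: Krt7 was at 6.66 in STAT3KO and undetected in WT, Krt8 was at 5.92 in STAT3KO and undetected in WT, Krt18 was undetected in STAT3KO and at 5.45 in WT, and Krt19 was at 9.29 in STAT3KO and 10.06 in WT. With IFNa Krt8 was undetected in both genotypes, and Krt7 was at 7.04 in STAT3KO and 6.11 in WT. The median of the 12 without IFNa, 1.03, changed sign to -0.45 over the 5 detected on both untreated arrays.

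Endothelial markers were detected for 6 of 15 in STAT3KO and 5 of 15 in WT. Neural and glial ones were detected for 4 of 16 in STAT3KO and 5 in WT, and skeletal and cardiac muscle ones for 7 of 16 in STAT3KO and 5 in WT. Of 8 muscle markers detected on either untreated array 2 (25%) were past 2-fold higher and 1 (12.5%) lower, against 12.3% and 9.69% of all genes. Tnni1, a slow troponin, was higher, at 7.92 in STAT3KO and undetected in WT. Tnnt2, another troponin, was lower, at 8.73 in STAT3KO and 10.09 in WT, and lower with IFNa too. Gap43, a protein of growing axons, was undetected in STAT3KO and detected in WT, at least 28.6-fold lower. Laptm5, a lysosomal protein of blood cells, was at 7.22 in STAT3KO and undetected in WT, while Cd53, a tetraspanin of blood cells, was undetected in STAT3KO and at 7.33 in WT. Nanog was at 7.55 in STAT3KO and undetected in WT untreated, and was among 3 detected of 13 pluripotency genes, 2 of them past 2-fold higher. Whether cells of another type contribute to the differences was not tested.

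Of 6 detected sex-chromosome genes 1 (16.7%) was past 2-fold higher and 0 lower, against 12.3% and 9.69% of all genes. Xist, the RNA that coats the inactive X chromosome, was at 10.38 in STAT3KO and 8.94 in WT. The Y-linked Uty was near background, at 5.51 in STAT3KO and 5.44 in WT, and undetected in STAT3KO IFNa. Eif2s3y, Kdm5d, Usp9y and Zfy1, also Y-linked, were undetected on all 4 arrays. Eif2s3x, an X-linked translation factor, was at 11.43 in STAT3KO and 11.35 in WT.

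Positional identity genes separated the lines by cluster. Of 37 Hox genes on the array 22 were detected. Of these 15 (68.2%) were past 2-fold lower in STAT3KO and 4 (18.2%) higher, against 9.69% and 12.3% of all genes. The median was -2.74, or -2.39 with undetected genes at their bound. Most of the 22 were detected on 1 untreated array alone, and over the 5 detected on both the median was -0.14. The split followed the genome. The 7 genes Hoxb9, Hoxb7, Hoxb6, Hoxb5, Hoxb3, Hoxb4 and Hoxb2 formed an unbroken run of lower genes on chromosome 11, and only Hoxb1 beside them was level, at 6.08 in STAT3KO and 6.21 in WT. With IFNa 6 of these 7 genes were past 2-fold lower. Hoxc13, Hoxc10, Hoxc9, Hoxc8 and Hoxc6 formed a run of 5 lower genes on chromosome 15. Hoxb7 was undetected in STAT3KO untreated and at 10.82 in WT, at least 50.6-fold lower, but it was detected in STAT3KO IFNa. Hoxb2 was undetected in STAT3KO and at 10.30 in WT. Hoxc9 was undetected in STAT3KO and at 11.45 in WT, at least 78.1-fold lower. Hoxc6 and Hoxc8 were at least 151-fold and 87.8-fold lower on the brighter probe, but their second probes differed by -0.63 and -0.34. The HoxD genes detected, Hoxd4, Hoxd8 and Hoxd9, were all lower, and Hoxd8 was at least 13.6-fold lower.

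HoxA genes alone went the other way. Hoxa7 was at 10.59 in STAT3KO and 5.56 in WT, 32.7-fold higher, and its other probe differed by 4.36. Hoxa5 was at 10.45 in STAT3KO and 7.17 in WT. Hoxa11 was at 9.70 in STAT3KO and undetected in WT, at least 20.1-fold higher, and Hoxa9 was at 6.65 in STAT3KO and undetected in WT. Hoxa4 was near background, at 5.98 in STAT3KO. Hox genes code body position through the combination of active clusters, and fibroblasts keep the combination of their site of origin in culture.

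Other patterning factors had 10 of 30 detected genes (33.3%) lower and 8 (26.7%) higher, against 9.69% and 12.3% of all genes. En1, a homeobox factor that marks a dermal fibroblast lineage, was undetected in STAT3KO and at 11.12 in WT, at least 62.3-fold lower. Foxc2, a forkhead factor of mesoderm, was at 6.48 in STAT3KO and 11.42 in WT, and Irx5 at 7.11 in STAT3KO and 10.43 in WT. Osr1 was undetected in STAT3KO and at 8.01 in WT. Gata2, a zinc finger factor, was at 11.63 in STAT3KO and 7.93 in WT, 12.9-fold higher, and Eya1 was at 8.69 in STAT3KO and 5.98 in WT. Tbx5, a factor of the forelimb and heart, was at 6.32 in STAT3KO and undetected in WT, with another probe at -0.91.

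The regulators of skeletal and fat lineages pointed several ways. Of 14 detected 7 (50%) were lower and 2 (14.3%) higher, against 9.69% and 12.3% of all genes. Scx, the transcription factor of tendon, was at 11.50 in STAT3KO and undetected in WT untreated, at least 70.0-fold higher. It was detected in WT IFNa and so is absent from the genes taken by bound above. Sox9, the cartilage factor, was at 10.68 in STAT3KO and 12.77 in WT, and Runx1 at 6.48 in STAT3KO and 8.51 in WT. Lpl, lipoprotein lipase, was at 8.28 in STAT3KO and 11.86 in WT, and Ebf1 at 5.76 in STAT3KO and 8.61 in WT. Of 4 detected retinoid genes 3 were lower, with Crabp1 the lowest.

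Genes of the insulin-like growth factor axis, binding proteins among them, leaned to the low side. Of 10 detected genes 6 (60%) were past 2-fold lower and 0 higher, against 9.69% and 12.3% of all genes. Their median was -1.71. Beside Igf2, the binding proteins Igfbp3 and Igfbp5 led the list. Igfbp3 was undetected in STAT3KO and at 11.05 in WT, at least 59.4-fold lower, and Igfbp5 was at 5.71 in STAT3KO and 11.96 in WT, 75.7-fold lower. Igfbp7 was at 12.23 in STAT3KO and 14.31 in WT. The receptor Igf1r was inside 2-fold, at 8.50 in STAT3KO and 9.08 in WT. Among 11 detected imprinted genes 3 (27.3%) were lower and 2 (18.2%) higher. Phlda2, a brake on placental growth, was higher, at 7.20 in STAT3KO and undetected in WT. Ppp1r9a, a neuronal scaffold protein, was also higher, at 9.30 in STAT3KO and 5.81 in WT.

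Wnt pathway genes were lower for 10 of 20 (50%) and higher for 1 (5%), against 9.69% and 12.3% of all genes. Their median was -1.09. Wnt5a, a noncanonical ligand, was undetected in STAT3KO and at 9.46 in WT, at least 19.8-fold lower, and its receptor Ror2 was undetected in STAT3KO and at 8.82 in WT. The 3 detected probes of Wnt5a ranged from -4.74 to -1.23. The secreted inhibitor Sfrp1 was at 5.44 in STAT3KO and 10.33 in WT, 29.7-fold lower. Lrp6, a coreceptor, was the 1 higher gene, at 7.01 in STAT3KO and 5.97 in WT.

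In the TGF-beta and BMP list 8 of 26 (30.8%) were lower and 1 (3.8%) higher, against 9.69% and 12.3% of all genes. The secreted antagonists Grem1 and Fst were undetected in STAT3KO and at 11.33 and 8.20 in WT, at least 71.9-fold and 8.22-fold lower. The ligands split, with Tgfb2 at 6.09 in STAT3KO and 8.23 in WT, and Tgfb1 at 8.38 in STAT3KO and 7.15 in WT. Notch and Hedgehog genes had 4 of 13 (30.8%) higher and 2 (15.4%) lower. The receptor Notch1 was at 5.60 in STAT3KO and 8.61 in WT, 8.09-fold lower, whereas Nrarp, a Notch feedback gene, was at 8.72 in STAT3KO and 6.29 in WT.

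Growth factors and receptor tyrosine kinases were lower for 15 of 36 (41.7%) and higher for 2 (5.6%), against 9.69% and 12.3% of all genes. Pdgfra and Pdgfrb, receptors of platelet-derived growth factor, were 15-fold and 12.3-fold lower, while the ligand Pdgfb was at 6.81 in STAT3KO and 5.38 in WT. Hgf and Fgf10, both fibroblast-derived ligands of epithelial receptors, were undetected in STAT3KO and at 7.58 and 7.43 in WT. Guidance molecules had 8 of 19 (42.1%) lower and 5 (26.3%) higher. Slit3 was undetected in STAT3KO and at 10.01 in WT, at least 28.8-fold lower, while Robo1, a receptor of slits, was at 8.56 in STAT3KO and undetected in WT, at least 9.11-fold higher. A second probe of Robo1 was at -0.59. Sema3a, a repulsive ligand, was at 6.28 in STAT3KO and 9.66 in WT, its receptor Nrp1 at 8.55 in STAT3KO and 11.79 in WT, and Sema3f at 10.70 in STAT3KO and 8.24 in WT.

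Inflammatory genes were split between chemokines. Of 29 detected chemokines and cytokines 13 were past 2-fold lower and 8 higher, or 44.8% and 27.6%, and 11 and 5 of them kept that side past 2-fold with IFNa. Cxcl5 and Cxcl1 are neutrophil chemokines of 1 gene cluster on chromosome 5 and went opposite ways. Cxcl5 was at 5.64 in STAT3KO and 10.45 in WT, 28.0-fold lower, whereas Cxcl1 was at 14.12 in STAT3KO and 11.48 in WT, 6.23-fold higher. Cxcl2, of the same chemokine group, was at 7.33 in STAT3KO and undetected in WT. Ccl20 was at 9.24 in STAT3KO and 5.55 in WT, 12.9-fold higher, and Csf3, the granulocyte growth factor, was at 7.49 in STAT3KO and undetected in WT. Cxcl12, the stromal ligand of CXCR4, was at 6.77 in STAT3KO and 10.55 in WT, and Il33, an alarmin held in the nucleus, at 6.04 in STAT3KO and 10.46 in WT. Ccl2 was level, at 11.59 in STAT3KO and 11.68 in WT. Of 16 NF-kB components 3 were higher and 2 lower, or 18.8% and 12.5%, near the 12.3% and 9.69% of all genes, with Tnfaip3, a brake on the pathway, at 7.68 in STAT3KO and 9.19 in WT.

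Interferon-stimulated genes leaned high before any IFNa was given. Of 48 on the array 33 were detected, 15 of them past 2-fold higher in STAT3KO and 4 lower, or 45.5% and 12.1% against 12.3% and 9.69% of all genes. The median was 0.68, or 0.54 with undetected genes at their bound, and 0.34 over the 22 detected on both untreated arrays. All 15 were also past 2-fold higher with IFNa. Interferon-inducible GTPases led them. Gbp2b was at 8.76 in STAT3KO and undetected on both WT arrays, at least 10.5-fold higher. Gbp3 was at 8.61 in STAT3KO and undetected in WT untreated, at least 9.42-fold higher. Igtp and Irgm2, immunity-related GTPases, were at 7.55 and 6.83 in STAT3KO, undetected in WT, and at least 4.53-fold and 2.74-fold higher. Irf1, an interferon regulatory factor, was at 9.86 in STAT3KO and 8.27 in WT, Isg20, an exonuclease, at 10.82 in STAT3KO and 8.71 in WT, and Samd9l at 8.08 in STAT3KO and 6.35 in WT.

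The lower ones were Trim25, Bst2, Oasl1 and Ifit2. Trim25, a ubiquitin ligase of the RIG-I pathway, was undetected in STAT3KO and at 7.90 in WT, at least 6.70-fold lower. Bst2, tetherin, was at 7.72 in STAT3KO and 10.39 in WT, 6.39-fold lower. Irf7, the factor that amplifies interferon production, was level without IFNa, at 5.88 in STAT3KO and 5.90 in WT. Genes of MHC class I loading were higher for 3 of 17 and lower for 3, 17.6% each way against 12.3% and 9.69% of all genes. H2-T22 and H2-D1 were at 9.96 and 11.64 in STAT3KO against 11.92 and 12.70 in WT, while Psmb9, an immunoproteasome subunit, was at 6.67 in STAT3KO and undetected in WT. B2m, the light chain, was at 14.15 in STAT3KO and 14.28 in WT.

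Immediate-early genes, the first responders to serum and stress, were lower for 13 of 27 (48.1%) and higher for 1 (3.7%), with a median of -0.96. Over all genes 9.69% were lower and 12.3% higher. Jun was at 6.44 in STAT3KO and 9.87 in WT, 10.8-fold lower, Fosl2 at 7.92 in STAT3KO and 10.98 in WT, and Klf2 at 6.01 in STAT3KO and 8.84 in WT. Egr2 was undetected in STAT3KO and at 8.90 in WT, at least 13.4-fold lower, while Egr1 was inside 2-fold, at 9.69 in STAT3KO and 10.65 in WT. The phosphatases that shut off MAP kinases split. Dusp1 was at 10.43 in STAT3KO and 12.72 in WT, and Dusp2 was at 8.76 in STAT3KO and undetected in WT, at least 10.4-fold higher.

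Growth machinery differed little, set against the 22% of all genes past 2-fold in either direction. Of 35 detected genes of DNA replication and mitosis 32 were within 2-fold, and Foxm1 was outside it, at 10.79 in STAT3KO and 9.59 in WT. All 20 ribosomal protein genes were within 2-fold, as were 18 of 19 housekeeping genes, Ywhaz being outside it at 8.89 in STAT3KO and 6.44 in WT. Of 31 oxidative phosphorylation genes 30 were within 2-fold. Cdkn2a, the locus of p16 and p19ARF that is often lost when fibroblasts immortalise, was bright in both lines, at 12.33 in STAT3KO and 12.23 in WT. Cdkn2c, a related CDK inhibitor, was at 11.10 in STAT3KO and 8.08 in WT, 8.11-fold higher. Cdkn1a, the p53 target p21, was at 9.10 in STAT3KO and 10.59 in WT, and Ccnd1 was level at 12.48 in STAT3KO and 12.39 in WT.

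Stress and metabolic genes gave mixed lists in which few members carried large differences. Of 14 heat shock genes 5 (35.7%) were higher and 2 (14.3%) lower, against 12.3% and 9.69% of all genes. With Hspb8 stood its partner Bag3, at 12.51 in STAT3KO and 11.27 in WT, and the small chaperone Cryab, at 12.71 in STAT3KO and 10.72 in WT. Hspb2 was at 9.08 in STAT3KO and undetected in WT. Hspb1 went the other way, at 7.15 in STAT3KO and 9.63 in WT. Sterol and fatty acid synthesis had 3 of 18 higher and 0 lower, and its 16.7% higher was near the share of all genes. Fdps, a farnesyl diphosphate synthase, was at 14.17 in STAT3KO and 12.31 in WT, and the elongase Elovl6 at 11.58 in STAT3KO and 9.56 in WT. Hypoxia and glycolysis genes had 4 of 26 (15.4%) higher and 6 (23.1%) lower. Adm, adrenomedullin, was at 5.52 in STAT3KO and 8.58 in WT, while Car9, a carbonic anhydrase induced by hypoxia, was at 8.29 in STAT3KO and undetected in WT, with a second probe at -0.04.

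Detoxification and lysosomal genes were split by family member. Of 32 detected antioxidant and detoxification genes 6 (18.8%) were higher and 7 (21.9%) lower, against 12.3% and 9.69% of all genes. Mgst1, a microsomal glutathione transferase, was undetected in STAT3KO and at 9.52 in WT, at least 20.6-fold lower. Gstm1, a cytosolic one, was at 13.21 in STAT3KO and 10.25 in WT, 7.76-fold higher, and Hmox1, heme oxygenase, was at 9.08 in STAT3KO and 11.29 in WT. Among 23 lysosomal genes Ctsh was undetected in STAT3KO and at 9.84 in WT, while Ctsc was at 7.52 in STAT3KO and undetected in WT. Of 21 apoptosis genes 5 (23.8%) were higher and 3 (14.3%) lower. Casp4, an inflammatory caspase, was at 6.66 in STAT3KO and 9.50 in WT, and Casp9, the apoptosome caspase, at 9.25 in STAT3KO and 7.21 in WT. In the unfolded protein and stress response list 4 of 24 (16.7%) were lower and 1 (4.2%) higher. Ddit3, or CHOP, was at 8.52 in STAT3KO and 10.59 in WT.

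Differences were also uneven by position in the genome, which no gene list took into account. When genes were grouped by chromosome (RefSeq, GRCm38.p6), the 541 genes of chromosome 6 had a median difference of 0.69, against 0.00 over the 9673 other genes. STAT3KO was past 2-fold higher for 200 of them, or 37.0%, and past 2-fold lower for 40, or 7.4%, whereas 10.9% and 9.8% of the other genes were. Chromosome 6 held 5.3% of the genes and 15.9% of those past 2-fold higher. With IFNa the median of chromosome 6 was 0.65. Chromosome 3 was second, with a median of 0.36 and 20.6% of 495 genes past 2-fold higher, followed by chromosome 1 at 0.29 and chromosome 7 at 0.28. At the other end stood chromosome 17, with a median of -0.37 and 15.5% of 497 genes past 2-fold lower, followed by X at -0.27 and chromosome 8 at -0.26. The within-genotype medians of IFNa against untreated were small on each chromosome, from -0.06 to -0.01 in STAT3KO and from -0.02 to 0.06 in WT.

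**Figure D4:**
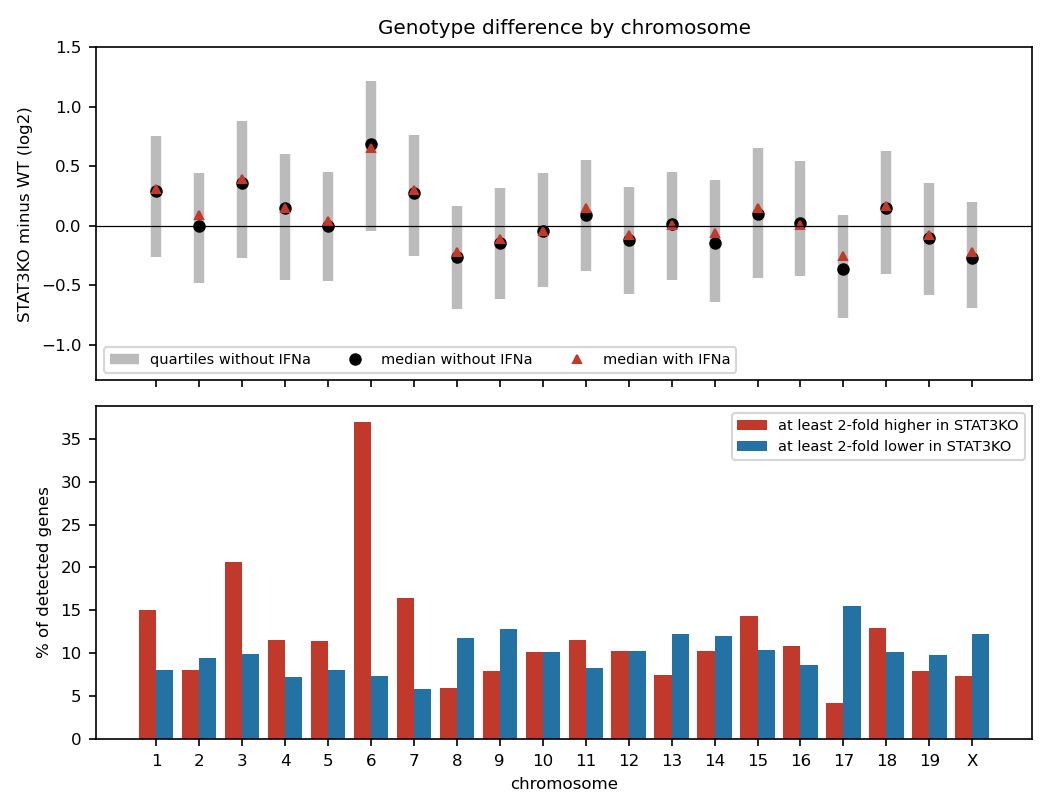
Upper panel: log2 difference, STAT3KO minus WT (vertical axis), of the detected genes of each chromosome (horizontal axis), as median and quartiles without IFNa and as median with IFNa. Lower panel: bars give the percentage of genes at least 2-fold higher and lower in STAT3KO without IFNa. Chromosome 6 lies highest at 0.69 and chromosome 17 lowest at -0.37.

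The shift of chromosome 6 ran over its whole length. With its genes in order and divided into 4 equal parts, the medians were 0.52, 0.69, 0.85 and 0.69. A running median over 51 neighbouring genes stayed between 0.23 and 1.05 without IFNa and between 0.34 and 0.94 with it. On chromosome 3 the part at the start had a median of 0.06 and the next 3 parts 0.53, 0.67 and 0.30. The running median of chromosome 17 lay between -0.63 and -0.06 without IFNa. With IFNa it lay between -0.62 and 0.02 and so reached zero, and the median over the chromosome was -0.26. Chromosome 5 is drawn as an example of a chromosome with a median near zero. Its running median went from -0.24 to 0.28 without IFNa and from -0.21 to 0.46 with it.

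**Figure D5:**
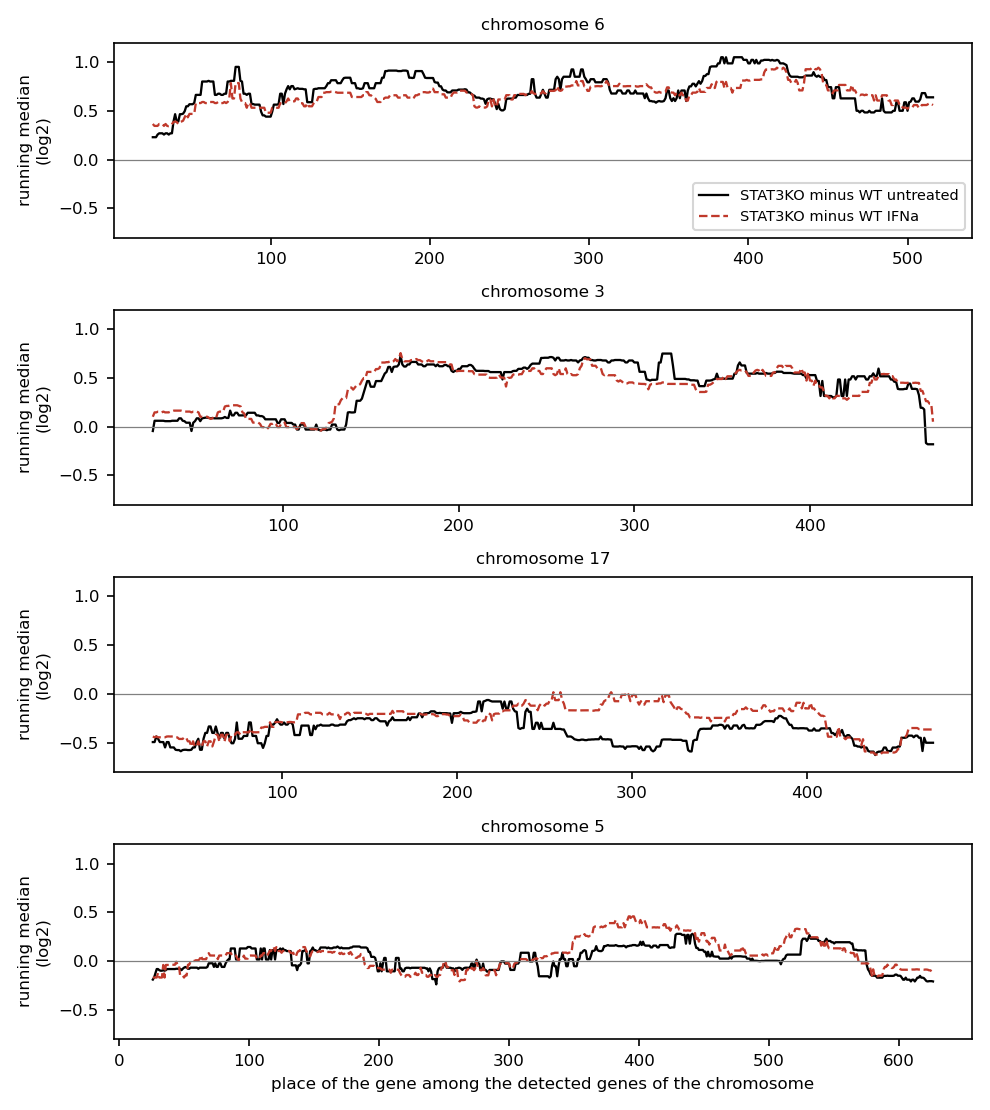
Running median over 51 neighbouring genes of the log2 difference, STAT3KO minus WT (vertical axis), along the gene order (horizontal axis) of chromosomes 6, 3, 17 and 5, without and with IFNa. Chromosome 6 stays above zero from end to end, between 0.23 and 1.05 without IFNa.

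Runs of neighbouring genes past 2-fold the same way were counted as well. There were 47 runs of at least 3 higher genes, holding 175 genes, and 19 of them with 82 genes lay on chromosome 6. Chromosome 3 held 8 of the 47. One of its runs held the cytosolic glutathione transferase genes Gstm7, Gstm6, Gstm2 and Gstm1. On chromosome 6, Hdhd5, Atp6v1e1, Bcl2l13, Bid, Mical3 and Pex26 formed a run of 6 with a median of 1.19, and Hoxa5, Hoxa7, Hoxa9, Hoxa11 and Hibadh a run of 5. The HoxA cluster, Gata2, Dysf, Klrg2, Ptpn6, Nanog, Ldhb, Foxm1, Lrp6 and Ndufa9, the 1 oxidative phosphorylation gene past 2-fold, are genes of this chromosome. Not all its genes were higher: Col1a2, Fbln2, Cxcl12, Cav1 and Mgst1 lie there too and were among the lowest of their lists. Runs of at least 3 lower genes numbered 21, with 75 genes, among them the HoxB and HoxC runs. Chromosome X held 4 of these, and chromosomes 17 and 8, which had low medians too, held 1 each.

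The position of chromosome 6 held under each other scaling run. Its median was 0.53 with no background correction, 0.84 with scaling to the 75th percentile, where the other chromosomes moved to 0.16, 0.71 with cyclic loess, 0.57 with the larger offset and 0.48 in the authors' normalized values. The arrays measured RNA and give no reading of the DNA.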

How the data were processed

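Total RNA of 4 samples was hybridised to Illumina mouse bead arrays, 1 for each genotype and treatment, with BeadStudio 3.2.3 as the software in the submitters' processing notes. The authors deposited a linear intensity per probe, and per the file headers the column of WT untreated already holds normalized values. It was identical to the authors' normalized intensities for that array, with a largest difference of 0. Beside each intensity the authors deposited a detection score, a fraction from 0 to 1 per the file headers, and 1 minus it served as the detection p. The sources used here do not give the authors' normalization method.

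In R 4.3.3, limma 3.58.1 removed background from the intensities of all 4 arrays by normexp, using the detection p and an offset of 16, followed by quantile normalization and log2. The code was tested on simulated data. A score above 0.99 counted as detected. Symbols came from the platform annotation, updated through the RefSeq table of GRCm38.p6: 29976 probes had 1 gene, 10 several and 16646 none. The brightest probe by mean over the 4 arrays stood for a gene. Of 3007 genes with more than 1 detected probe 613 were past 2-fold on the probe used, 256 of them with every detected probe past 2-fold the same way and 95 with a detected probe of opposite sign.

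Genes were counted at 2-fold, with no test, since each group is 1 array. Precision is limited by having so few arrays. For a probe undetected on 1 array only a bound on the fold exists, given as "at least". It divides the detected level by the array's lowest detected level, or by the undetected probe's own level if that is larger. The bound holds only for the background correction and offset used. For Tgm2 it was 5.78 on the log2 scale, while the difference in the authors' values was 4.49. A list is described by the counts of its detected members past 2-fold and their median. Of 1329 entries in 50 lists 1202 matched a named gene. The members and lists were chosen with earlier results of these data known. The genes named were Stat3, the 20 largest differences each way among genes detected on both untreated arrays and past 2-fold the same way with IFNa and in the authors' values, the 15 largest bounds each way among genes detected on 1 and undetected also with IFNa in the genotype that lacked them, the genes beside Stat3, up to 5 members of a list by size, and members needed to describe a list. Others named by value, the chromosome runs among them, were chosen after their values were seen.

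Alternatives were cyclic loess, scaling to the 75th percentile, no background correction, the authors' values with a floor of 16, offset 50, the mean of all detected probes, the untreated arrays alone, other detection filters, bright genes only (mean log2 of at least 8) and, added after seeing the data, the removal of chromosome 6.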

Additional observations from a re-analysis of the deposited data

Results flagged for a closer look

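Ifit2, an RNA-binding antiviral gene detected on all 4 arrays, differed in sign between the pairs. The log2 difference of STAT3KO over WT came to -1.07 in untreated cells and 1.37 in cells given IFNa. Taf6l, a subunit of histone acetyltransferase complexes, went the other way, with 1.15 without IFNa and -1.14 with it, and lay near background at 5.96 in STAT3KO untreated and undetected in WT untreated. With 1 array per group neither change between pairs was tested. Across the genes, these were the 2 that were past 2-fold in opposite directions in the pairs, 1 each way.

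The 4616 unnamed probes enter no gene list and no count of genes. Of these, 520 were at least 2-fold higher in STAT3KO and 390 at least 2-fold lower, or 11.3% and 8.45%. These shares were near the 11.6% and 9.04% over all 18845 selected probes. With IFNa 283 of the 520 and 240 of the 390 were past 2-fold on the same side. The largest differences among them were 8.97 and -7.61 on the log2 scale.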

How the results depend on the processing

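All 71 genes named by size, Stat3 included, kept their direction and stayed past 2-fold in each of 777 recomputed values, some of which their choice had used. Their sizes were less steady: 198 of these values, over 65 genes, moved by more than 1.5-fold, for 61 of 71 genes with no background correction, 62 in the authors' values and 50 with offset 50. In the authors' values the log2 difference was -3.19 for Stat3 (-4.15 as reported), -6.04 for Slpi (-7.67), -5.50 for Igf2 (-7.21), 5.20 for Blnk (6.73) and -7.42 for Thy1 (-9.42). Thy1 was undetected in STAT3KO, so its values here rest on a background reading. The counts of 1255 higher and 990 lower genes became 739 and 644 with no background correction, 671 and 588 in the authors' normalized values, and 499 and 417 over bright genes only. Over genes detected on both untreated arrays 826 were higher. These filters test fewer genes, while for the other settings the cause was not tested. Scaling to the 75th percentile moved the median of all genes to 0.18, from 0.03, and gave 1585 higher and 1165 lower. Without chromosome 6 the counts were 1055 and 950.

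Of the list medians, that of Hox genes moved most, to -1.71 with no background correction, -1.46 in the authors' values, -1.99 with offset 50, -0.14 over genes detected on both arrays and -0.24 with no detection filter. Epithelial markers reversed to -0.45 over genes detected on both arrays, and stood at 0.43 in the authors' values and 0.13 with no detection filter. Over genes detected on both arrays skeletal and fat regulators came to -1.66 and guidance molecules to -1.28. With no detection filter neural markers came to -0.10, skeletal and fat regulators to -0.17, imprinted genes to 0.18, the insulin-like axis to -0.75 and the Wnt list to -0.26. Over bright genes chemokines and cytokines came to -1.73, imprinted genes to 0.25 and guidance molecules to -1.58. Notch and Hedgehog genes came to 0.39 with the mean of all detected probes, and skeletal and fat regulators to -1.97 without chromosome 6. The other 542 recomputed medians moved by less than 1.5-fold. A median changed sign in 40 of the 562, over 16 lists, in 30 of them with both values within 0.25 of zero. Beyond those named, other patterning factors came to 0.30 over genes detected on both arrays and 0.40 over bright genes, and basement membrane genes to -0.39 over bright genes. Under scaling to the 75th percentile receptors, JAKs and STATs came to 0.27, CDK inhibitors to 0.27 and complement to 0.33.

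No paired analysis was possible because the untreated groups are 1 array each and share fewer than 2 replicate numbers, and no replicate was left out. A fit of genotype and IFNa over all 4 arrays, which would take the treatments as repeats, was not run. Signal over background limits the dim genes: both the bounds and the folds of genes just above background depend on the offset.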
